A study of Mus musculus with 6 samples.

Results

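The genes described are 10 cell surface adhesion molecules, Mcam, Icam1, Vcam1, Alcam, Cadm1, Epcam, Cd47, Cd24a, F11r and Bcam, out of 50600 gene identifiers in the files. They were chosen by symbol from a list, with Mcam on it because its level was higher in knockout cells, so the Mcam difference is given as a description with no test. All 10 were among the 16938 genes that passed a filter on low counts and were tested. RNA with polyA tails was profiled in cortical epithelial cells of the mouse thymus (cTECs), used as primary cells from animals 8 to 10 weeks old. The 3 knockout libraries (KO, replicates A, B and C) came from B6.B6CB-Psmb11tm1Smta mice that are Psmb11-/-, and the 3 wild-type libraries (WT, replicates A, B and C) from Psmb11+/+ mice of the same strain name. The labels do not say whether the replicates of a genotype were separate mice, so p-values measure only the spread between these samples. The comparison asks how the surface adhesion molecules of cTECs differ in RNA level when Psmb11 is absent.

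Thymic epithelial cells hold developing thymocytes through adhesion molecules on their surface. Icam1 and Vcam1 are ligands for integrins on thymocytes, Alcam binds Cd6 on T cells, and Cadm1 binds itself and Crtam. Epcam, F11r and Cadm1 also join epithelial cells to each other, while Bcam and Mcam bind laminins of the extracellular matrix. Cd47 and Cd24a are surface molecules whose receptors sit on myeloid and lymphoid cells. Psmb11 encodes a catalytic subunit of the proteasome that is made in cTECs.

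RefSeq promoter windows (GRCm38.p6, 250 bases before to 50 bases after the start site) were found for 7 of the 10 genes. There was no entry for Vcam1, Cadm1 and Cd24a. The stretches before any annotated exon are shown for Mcam, the gene that was higher by the widest margin, for Epcam, the called gene with a window that was higher in KO, and for F11r, the one promoter of the 7 with an AP-1 motif. They run 5′ to 3′ on the strand of the gene, and capitals mark matches to the AP-1 motif TGANTCA or to the GC box GGGCGG, whose match on the other strand reads CCGCCC.
Mcam, chr9:44134408-44134468, plus strand: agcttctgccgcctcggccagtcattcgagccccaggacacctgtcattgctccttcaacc
Epcam, chr17:87635729-87635978, plus strand: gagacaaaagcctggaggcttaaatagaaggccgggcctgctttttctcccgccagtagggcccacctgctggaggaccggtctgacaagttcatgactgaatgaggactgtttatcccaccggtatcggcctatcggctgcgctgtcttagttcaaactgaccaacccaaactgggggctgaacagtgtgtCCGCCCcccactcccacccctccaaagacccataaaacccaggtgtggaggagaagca
F11r, chr1:171437311-171437534, plus strand: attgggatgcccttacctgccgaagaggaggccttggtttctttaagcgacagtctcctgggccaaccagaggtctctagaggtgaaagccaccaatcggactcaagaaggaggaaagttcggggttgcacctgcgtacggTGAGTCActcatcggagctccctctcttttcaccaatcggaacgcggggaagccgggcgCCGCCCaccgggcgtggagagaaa
At least 1 GC box was present in the windows of all 7 genes, a motif held by 35.66% of all 32851 promoters and by 59.06% of the 15090 promoters of genes tested. The Mcam window held 5 of them, the first bases at 112, 89, 72, 62 and 38 bases before the RefSeq start site, all past the end of the printed stretch. GENCODE starts the Mcam gene at 44134469, right after that stretch, so these 5 matches lie past its GENCODE start. AP-1 was matched only in F11r, 109 bases before the start site, against 7.81% of all promoters and 5.58% of those of genes tested. The interferon-stimulated response element (GAAA, then NN, then GAAA) and a kappaB consensus were searched on both strands. The kappaB letters were GGG, then R (A or G), then NN, then YY (C or T), then CC. Neither had an exact match in the 7 genes, against 3.44% and 8.46% of all promoters and 3.09% and 10.5% of those of genes tested. Sites that depart from these letters were not searched, so no match does not mean that such sites are absent. These matches describe letters in the windows and are not measured binding sites.

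Gene counts ran from 34265035 to 36713388 per KO library and from 34660349 to 39224292 per WT library. The deleted gene, Psmb11, had 36 to 67 counts in KO and 8293 to 10027 in WT, so the libraries went with their labels. In the series as a whole, 3989 of 16938 genes (23.6%) were called at an edgeR adjusted p below 0.05, with 12.5% higher and 11.1% lower in KO, and the CPM (gene counts scaled by library size and TMM factor) of 39.3% did not overlap between the genotypes. Cortical epithelial markers were present in every library, at a summed level of 13650 to 14080 CPM in WT and 9147 to 10230 CPM in KO. KO A had the highest summed level in the endothelial, thymocyte, tuft cell, B cell and medullary epithelial marker lists. Its medullary epithelial level was 6479 CPM against 4806 to 6306 in the other libraries. Its summed endothelial level was 70.41 CPM against 16.93 to 50.15 in the other 5, its thymocyte level 145.0 against 87.93 to 107.8, its tuft cell level 226.2 against 111.0 to 179.0, and its B cell level, low throughout, 3.37 against 1.10 to 2.01. Values without KO A are given where they bear on a result. In bulk RNA of this kind, fewer cells of a type and less RNA per cell cannot be told apart.

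Among these genes Mcam had the widest gap between genotypes. Besides Mcam, Cd24a and Epcam rose in KO, Alcam and Vcam1 fell, and Icam1, Cadm1, Cd47, F11r and Bcam were not called. The 4 called of 9 tested genes are 44.4%, beside 23.6% of all genes tested. The CPM of 7 of the 9 did not overlap between genotypes, beside 39.3% of all genes. The median log2 fold change of the 9 was 0.06, beside 0.00 over all genes. Since the genes were picked with results known, nothing is read from these shares.

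**Figure D1:**
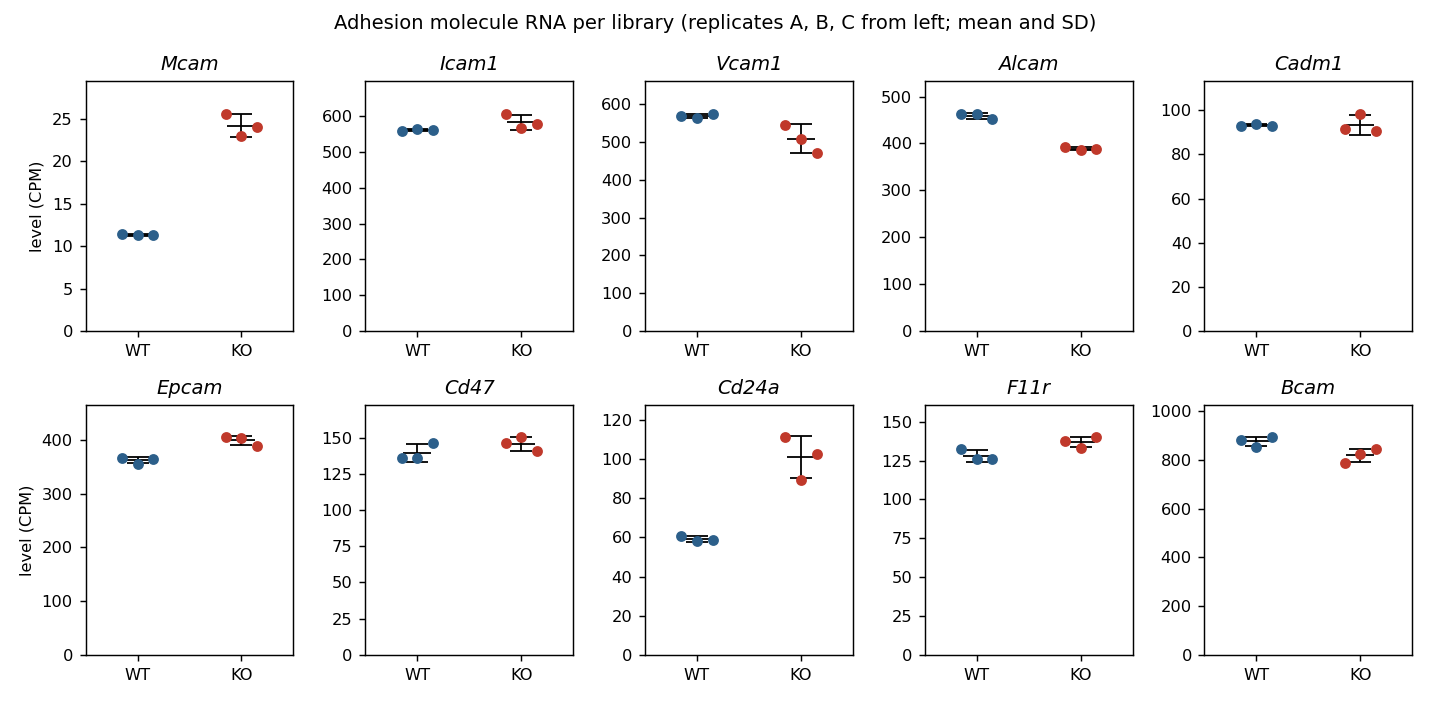
Level of each of the 10 adhesion genes in every library, in CPM on the y axis from 0, with WT in blue and KO in red, replicates A, B and C from left and bars for mean and SD. Mcam and Cd24a stand well above WT in all 3 KO libraries, Alcam lies below WT at 386.1 to 391.5 against 452.2 to 463.5 CPM, and Cadm1 and Cd47 overlap.

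Mcam encodes a melanoma-associated adhesion molecule of the immunoglobulin superfamily, a laminin receptor known from endothelium, pericytes and smooth muscle. The gene (ENSMUSG00000032135.15) lies on chromosome 9 from 44134469 to 44142727 on the plus strand (GRCm38). Its counts, in the order A, B, C, were 949, 844 and 820 in KO against 394, 405 and 440 in WT. In CPM the values were 25.57, 22.9 and 23.99 in KO and 11.44, 11.28 and 11.26 in WT. Every KO library was at about the same high level and every WT library at about the same low one, with no value between 11.44 and 22.9. The means were 24.15 ± 1.34 CPM in KO and 11.33 ± 0.098 in WT (n = 3 libraries each, SD), 2.13-fold or 1.09 on the log2 scale. Leaving out each library in turn gave 1.05 to 1.13, the lowest without KO A. The WT libraries differed among themselves by a coefficient of variation of 0.866%, below the 4.92% that counting alone gives at these counts, so the WT SD is smaller than the counting error.

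In TPM, the transcript abundance that RSEM corrects for length, Mcam was at 16.33, 13.91 and 14.48 in KO and 6.68, 7.3 and 6.49 in WT. By this length-corrected level it was the lowest of the 10 genes in both genotypes, at the 37.5th percentile of genes tested in WT. It made up 0.3% of the summed TPM of the 10 genes in WT and 0.64% in KO. The mean transcript length that RSEM assigned to Mcam was 2608.41, 2807.96 and 2825.27 bases in KO and 2825.91, 2587.61 and 2876.86 in WT, overlapping ranges with a KO to WT ratio of 0.994.

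Markers of cells in which Mcam is well known moved in part along with it. None of 12 endothelial markers tested was called by edgeR, beside 23.6% of all genes, and 0 by DESeq2 or limma, with 1 at an unadjusted p below 0.05. Their median log2 fold change was 0.59, with 10 of 12 above 0, and the spread between libraries was wide. The ranges of their sum overlapped, at 24.8 to 70.41 CPM in KO and 16.93 to 50.15 CPM in WT. In KO B the endothelial sum of 24.8 CPM lay within the WT range while Mcam was at 22.9 CPM, above every WT library. Of 11 pericyte and smooth muscle markers tested 6 were higher and 0 lower, with 4 called by limma on log2 TPM. Of all genes tested, 12.5% were higher. Limma called 1857 and 1927 of all 16938 genes in either direction, with pseudocounts of 0.1 and 1. The sum of the pericyte and smooth muscle markers was 1049 to 1067 CPM in KO and 773 to 847.2 in WT. The most abundant were Tagln (335 CPM in KO and 283 in WT), Myh11 (235 and 195) and Acta2 (195 and 129), all called higher. Mylk had 125 and 119 and was not called. Also called higher were Notch3, a receptor of mural cells, with 107 CPM in KO and 49.2 in WT, Rgs5 with 42.2 and 21.9, and Cspg4 with 14.0 and 10.4. Pdgfrb had 3.63 and 3.41, Abcc9 had 1.63 and 1.68, and neither was called. Kcnj8 and Higd1b were below 1 CPM on average in both genotypes. Kcnj8 was lower in KO, at 0.242 CPM against 0.462 in WT without overlap, and was not called (edgeR adjusted p = 0.133). Of 11 fibroblast markers 7 were higher and 0 lower (1888 to 2026 against 1669 to 1763 CPM), with 4 called by limma on log2 TPM. Of 11 medullary epithelial markers 6 were higher and 0 lower (6125 to 6479 against 4806 to 5379 CPM). No marker of these lists was at 0 in all libraries. The part of endothelial, pericyte, smooth muscle, fibroblast and medullary cells in the Mcam difference was not tested.

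**Figure D2:**
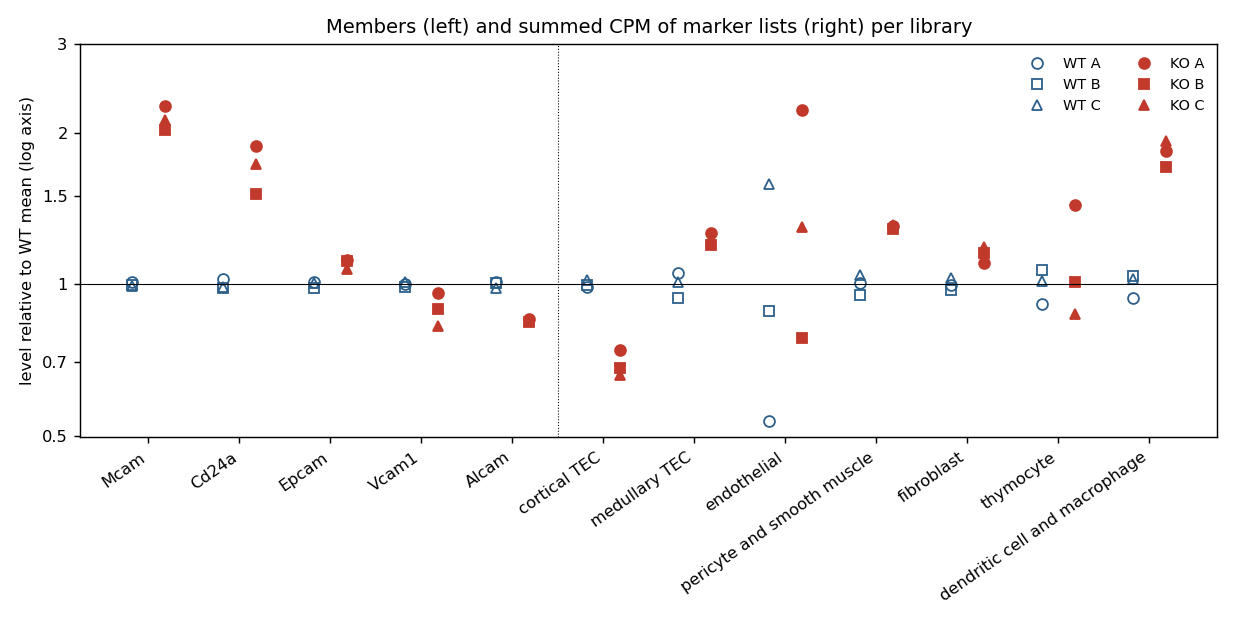
Level of Mcam and of the 4 called genes, left, and summed CPM of 7 marker lists, right, each divided by its WT mean on a log axis, with 1 point per library (open blue WT, filled red KO; circle A, square B, triangle C). Mcam and Cd24a are above WT in all KO libraries, whereas the endothelial and thymocyte sums scatter across both genotypes, with KO A highest in both.

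Laminin and other reported ligands of Mcam were looked at from the list of binding partners. Lama4, the laminin chain that Mcam binds, had 111 ± 7.70 CPM in KO and 107 ± 2.86 in WT and was not called (edgeR adjusted p = 0.447). Wnt5a, a secreted signalling protein reported to bind Mcam, had 18.19, 16.01 and 15.47 CPM in KO and 9.9, 10.64 and 10.54 in WT. It rose by 0.68 ± 0.09 (SE) on the log2 scale (edgeR adjusted p = 4.26e-05), and the 2 sets of values did not overlap. Lgals1 and Lgals3, galectins that bind glycans on Mcam among many other proteins, rose by 0.50 and 1.30 (edgeR adjusted p = 0.000169 and 1.79e-05). Lgals3 was low in both genotypes, 6.45 ± 0.322 against 2.63 ± 0.517 CPM. Kdr, the endothelial growth factor receptor with which Mcam can associate, had 2.55 CPM in KO and 2.26 in WT and was not called (edgeR adjusted p = 0.558).

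Icam1, the ligand of the integrin LFA-1 and a gene that inflammatory signals raise in many cells, lies on chromosome 9 from 21015985 to 21028817 (ENSMUSG00000037405.8, plus strand). Its values were 606.4, 566.1 and 576.3 CPM in KO and 557.4, 563.1 and 560.0 in WT. All KO values were above all WT values, the closest pair being 566.1 and 563.1 CPM. The log2 fold change was 0.06 with a 95% interval of -0.02 to 0.13, and it was not called (edgeR adjusted p = 0.271). That interval holds differences of up to 0.13 on the log2 scale in favour of KO.

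Vcam1, the ligand of the integrin VLA-4, lies on chromosome 3 from 116109949 to 116129688 (ENSMUSG00000027962.14, minus strand). Its values were 545.4, 508.5 and 469.4 CPM in KO and 569.0, 562.5 and 574.2 in WT. The KO libraries were spread over a wider range, all of it below WT. It fell by 0.16 ± 0.05 (SE) on the log2 scale, from 568.6 ± 5.91 to 507.7 ± 38.0 CPM (edgeR adjusted p = 0.0188). Fits that left out 1 library called fewer genes in all, at 2715 to 3661 against 3989. The Vcam1 call did not hold in every alternative. It was lost without KO B (adjusted p = 0.0607), KO C (0.0595), WT A (0.0581), WT B (0.052) or WT C (0.0764) in edgeR, and with limma on log2 TPM (0.199 and 0.194 with pseudocounts of 0.1 and 1). Without KO A the log2 fold change was -0.22 and without KO C -0.11.

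Most integrin chains that bind these 2 ligands are made by blood cells, and those were low in these libraries. Itgal, a chain of LFA-1, had 9.619, 3.691 and 3.744 CPM in KO and 2.41, 3.481 and 3.89 in WT, so that KO A alone stood out; without it the log2 fold change was 0.19 in place of 0.80. Itgb2, the other chain, had 6.17 ± 2.21 CPM in KO and 7.49 ± 0.927 in WT. Neither was called (edgeR adjusted p = 0.332 and 0.461). Without KO A, Itgb2 was called lower at a log2 fold change of -0.60 (edgeR adjusted p = 0.00667). Itga4, a chain of VLA-4, had 3.314, 1.927 and 0.9946 CPM in KO and 0.6677, 0.8634 and 1.152 in WT, with overlap, and was not called (edgeR adjusted p = 0.0599). It was called in 5 of 16 alternatives, 1 of them without KO C (1.54, edgeR adjusted p = 0.00257), while without KO A the log2 fold change was 0.70 in place of 1.21 (edgeR adjusted p = 0.134). Itgam, which pairs with Itgb2 in another receptor of Icam1, rose from 0.658 ± 0.218 to 1.48 ± 0.340 CPM (log2 fold change 1.16, edgeR adjusted p = 0.0108). Itga9, a chain that can bind Vcam1, rose from 6.66 ± 0.796 to 9.06 ± 0.893 CPM (0.44, edgeR adjusted p = 0.0118). The shared beta chain Itgb1, which epithelial cells also use, was abundant at 461 ± 11.4 and 439 ± 4.95 CPM and was not called (edgeR adjusted p = 0.15). Itgb7, a beta chain that also pairs with the Itga4 product, fell from 17.3 ± 1.57 to 11.9 ± 0.705 CPM (log2 fold change -0.54, edgeR adjusted p = 0.00032).

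Alcam, which binds Cd6 and itself, lies on chromosome 16 from 52248996 to 52454074 (ENSMUSG00000022636.13, minus strand). It had 391.5, 386.1 and 388.8 CPM in KO and 463.5, 463.0 and 452.2 in WT. Both genotypes were tight, with the highest KO library at 391.5 and the lowest WT library at 452.2 CPM. Alcam fell by 0.24 ± 0.03 (SE) on the log2 scale, from 459.6 ± 6.37 to 388.8 ± 2.71 CPM (edgeR adjusted p = 6.85e-05). The call held in all 17 alternatives, at adjusted p between 5.8e-11 and 0.00794. Its partner Cd6, a surface protein of T cells, had 4.096, 1.872 and 1.375 CPM in KO and 1.423, 1.42 and 1.254 in WT, again with KO A highest, and was not called (edgeR adjusted p = 0.141). Its log2 fold change of 0.85 became 0.25 without KO A (edgeR adjusted p = 0.519). It was called without KO C (1.13, edgeR adjusted p = 0.0197) and with no filter on low counts (0.84, edgeR adjusted p = 0.00337).

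Both falling genes lay beside a lower cortical epithelial list. Of 14 cortical markers tested 13 were lower and 1, Cd274, was higher (edgeR, 92.9% lower, beside 11.1% of all genes), with a median log2 fold change of -0.51. The list holds Psmb11, the deleted gene. The smaller falls of Alcam and Vcam1 moved in the same direction, and the part of cell composition in them was not tested.

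Cadm1, a nectin-like molecule, lies on chromosome 9 from 47530173 to 47857637 (ENSMUSG00000032076.19, plus strand). It had 91.21, 98.37 and 90.36 CPM in KO and 92.93, 93.55 and 92.81 in WT. KO values fell on both sides of WT, and the log2 fold change was 0.00 with a 95% interval of -0.08 to 0.09 (edgeR adjusted p = 0.964). Its sign turned in 6 alternatives, each with a value near 0. The receptor Crtam, of activated lymphocytes, was at 0.531 ± 0.251 CPM in KO and 0.325 ± 0.103 in WT and was not called (edgeR adjusted p = 0.297). Epb41l3, which encodes a cytoplasmic protein that ties Cadm1 to actin, fell from 203.4 ± 4.14 to 165.0 ± 6.17 CPM (log2 fold change -0.30, edgeR adjusted p = 2.56e-05).

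Epcam, the adhesion molecule by which thymic epithelial cells are commonly recognised, lies on chromosome 17 from 87635979 to 87651129 (ENSMUSG00000045394.8, plus strand). Whether its protein was used to sort these cells is not given in the sources used here. It had 404.4, 403.5 and 388.7 CPM in KO and 366.9, 355.7 and 364.8 in WT. Each KO library was above each WT library. Epcam rose by 0.14 ± 0.03 (SE) on the log2 scale, from 362.5 ± 5.92 to 398.9 ± 8.82 CPM (edgeR adjusted p = 0.00736). The call held in all 17 alternatives, at adjusted p between 0.00084 and 0.0417. Cldn7, a claudin that forms a complex with Epcam, was at 11.88, 12.48 and 13.98 CPM in KO and 4.5, 5.849 and 4.376 in WT. Cldn7 rose by 1.38 ± 0.12 (SE) on the log2 scale (edgeR adjusted p = 1.26e-06), from a low level.

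F11r, the tight junction molecule JAM-A, lies on chromosome 1 from 171437535 to 171464603 (ENSMUSG00000038235.4, plus strand). It had 137.3, 133.2 and 139.9 CPM in KO and 132.2, 126.0 and 125.8 in WT. The groups did not overlap, though KO B at 133.2 and WT A at 132.2 nearly met. The log2 fold change of 0.10 (95% interval 0.02 to 0.17) was not called (edgeR adjusted p = 0.0678), and was called when genes were limited to a mean of 5 CPM (edgeR adjusted p = 0.0269) or scaled by upper quartile (0.0427). Tjp1, a scaffold protein of the tight junction and a listed partner, rose by 0.12 (edgeR adjusted p = 0.0471), and Pard3, a polarity protein that binds F11r, had 241 CPM in KO and 251 in WT and was not called (edgeR adjusted p = 0.233).

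Cd24a is a small, heavily glycosylated protein on a lipid anchor, high on immature thymocytes and on several epithelia. The gene lies on chromosome 10 from 43578284 to 43584265 (ENSMUSG00000047139.9, plus strand). It had 111.1, 89.5 and 102.4 CPM in KO and 60.71, 58.21 and 58.52 in WT. All 3 KO libraries were far above WT, with KO A highest and KO B lowest among them. Cd24a rose by 0.77 ± 0.07 (SE) on the log2 scale, 1.71-fold, from 59.15 ± 1.36 to 101.0 ± 10.9 CPM (edgeR adjusted p = 5.92e-05). The call held in all 17 alternatives, at adjusted p between 5.37e-64 and 0.0065, and without KO A the log2 fold change was 0.70. Pseudogene copies of Cd24a exist, and the rise on RSEM expected counts, which share out reads that match several genes, was 0.77 as well.

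Thymocyte RNA was followed beside Cd24a because thymocytes carry it. None of 14 thymocyte markers tested was called by edgeR, beside 23.6% of all genes, and 0 by DESeq2 or limma, with 1 at an unadjusted p below 0.05. Their summed level was 145.0, 102.1 and 87.93 CPM in KO and 92.35, 107.8 and 102.5 in WT. KO C had the lowest thymocyte sum of all 6 libraries and a Cd24a level of 102.4 CPM, above every WT library. Medullary and tuft cell markers were higher in KO (6 of 11 and 6 of 9 called, 0 lower in both). That is 54.5% and 66.7% higher, beside 12.5% of all genes. The part of thymocytes, medullary and tuft cells in the Cd24a rise was not tested. Siglecg, a surface protein of B cells that binds Cd24a, was at 0.222 CPM in KO and 0.0364 in WT, below the filter, and was not tested.

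Cd47, the signal that restrains engulfment by macrophages through Sirpa and also a receptor for thrombospondin, lies on chromosome 16 from 49800533 to 49915010 (ENSMUSG00000055447.18, plus strand). It had 146.0, 150.1 and 140.7 CPM in KO and 135.7, 135.8 and 146.4 in WT. WT C lay inside the KO range, and the log2 fold change of 0.06 (95% interval -0.02 to 0.15) was not called (edgeR adjusted p = 0.274). Its partners Sirpa and Thbs1 rose. Sirpa had 73.88, 80.32 and 79.63 CPM in KO and 67.3, 71.13 and 67.76 in WT, a rise of 0.18 ± 0.04 (SE) on the log2 scale (edgeR adjusted p = 0.00629). Thbs1, the matrix protein thrombospondin, had 374.8, 332.7 and 375.1 CPM in KO and 251.7, 220.6 and 237.1 in WT, a rise of 0.61 ± 0.06 (SE) (edgeR adjusted p = 4.5e-05). Dendritic cell and macrophage markers, whose cells carry Sirpa, were also higher, 7 of 12 with 0 lower (3 called by limma on log2 TPM). That is 58.3% higher beside 12.5% of all genes. Limma called 1857 and 1927 of all 16938 genes in either direction, with pseudocounts of 0.1 and 1. The sum of the dendritic cell and macrophage markers was 67.62 to 76.09 CPM in KO and 37.1 to 41.0 in WT. Csf1r, Mrc1, C1qa, C1qb and C1qc of this list were not called. The part of dendritic cells and macrophages in the Sirpa rise was not tested.

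Bcam, the Lutheran blood group molecule and a receptor for the laminin chain Lama5, lies on chromosome 7 from 19756131 to 19771016 (ENSMUSG00000002980.14, minus strand). It had 789.8, 823.5 and 845.0 CPM in KO and 881.9, 854.1 and 893.1 in WT. KO C and WT B were close, at 845.0 and 854.1 CPM, and the groups did not overlap. The log2 fold change of -0.10 (95% interval -0.17 to -0.02) was not called (edgeR adjusted p = 0.0675). It was called with DESeq2 (adjusted p = 0.0478), with no filter on low counts (edgeR adjusted p = 0.0341) and without KO C (edgeR adjusted p = 0.0351). Lama5 went the other way, with a rise of 0.26 ± 0.04 (SE) from 225.2 ± 7.28 to 270.4 ± 17.9 CPM (edgeR adjusted p = 0.000678).

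**Figure D3:**
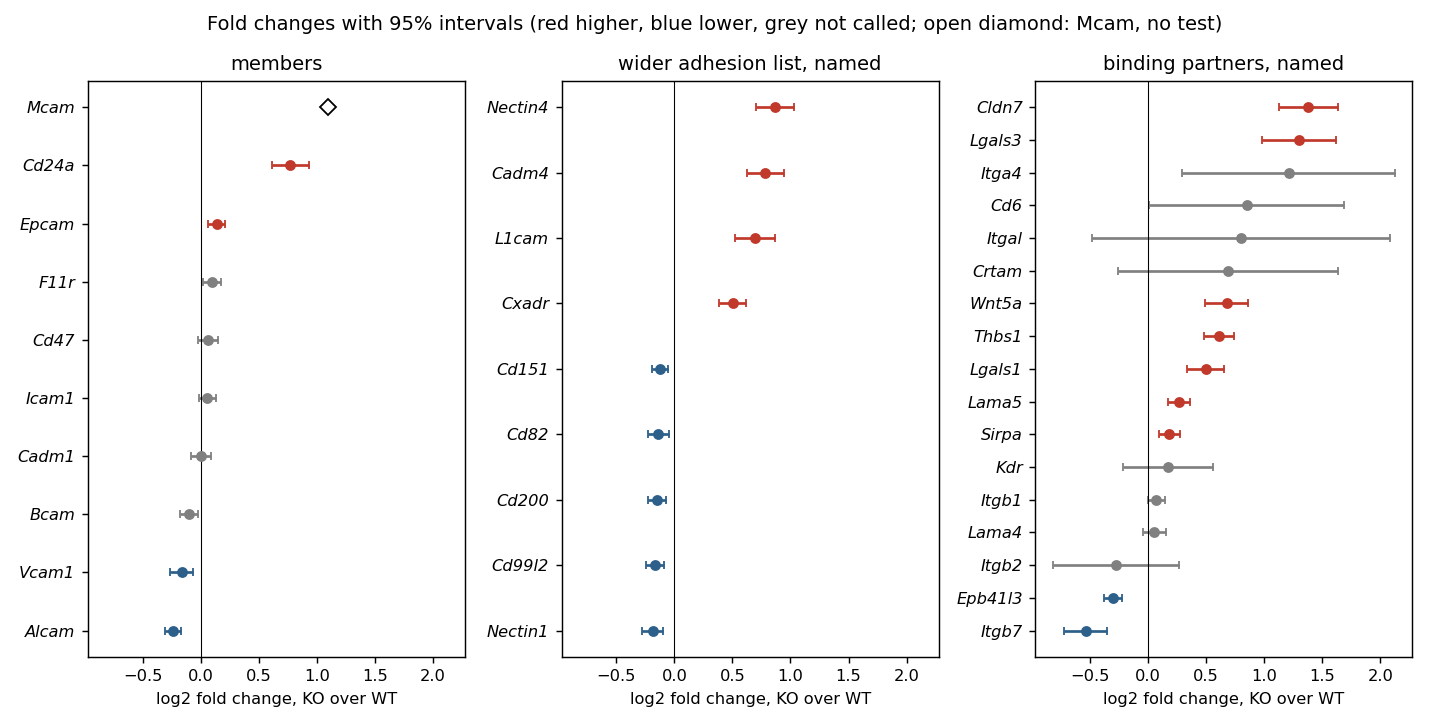
Log2 fold change of KO over WT on the x axis, with 95% intervals, for the 10 genes, for 9 named genes of the wider adhesion list and for the named binding partners (red higher, blue lower, grey not called; the open diamond is Mcam, which was chosen by its rise and has no test). Cd24a at 0.77 is the widest called difference among the 10, and the partners of blood cells such as Itga4, Cd6 and Itgal have wide intervals.

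Length-corrected levels can be compared between genes. In WT the order by mean TPM was Bcam (722.1 ± 11.7), Icam1 (393.8 ± 4.22), Epcam (320.7 ± 1.60), Vcam1 (304.1 ± 1.61), Alcam (234.2 ± 2.61), F11r (108.2 ± 4.21), Cd47 (80.29 ± 2.93), Cadm1 (65.07 ± 4.43), Cd24a (62.88 ± 1.43) and Mcam (6.823 ± 0.424). Only Cadm1 and Cd24a overlapped as neighbours in that order, so the other neighbours differed by more than the spread between libraries. In KO the first 5 places were the same, and Cd24a, at 110.4 ± 10.6 TPM, stood above Cd47 (84.08 ± 1.90) and overlapped with F11r (116.9 ± 4.22). The summed TPM of the 10 genes was 2280 to 2323 in WT and 2325 to 2374 in KO. Within that sum the share of Bcam was 31.4% in WT and 29.6% in KO, and that of Cd24a 2.74% and 4.72%.

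Other readouts of the same genes were compared as a description. Mean transcript length overlapped between genotypes for 9 of the 10 genes. Icam1 was the exception, at 2498.79 to 2501.22 bases in KO and 2504.53 to 2510.32 in WT, a ratio of 0.997. Genes on the other strand overlap 5 of the 10 genes, and counting used strand. Reads on the other strand made up at most 2.66% of the total for Mcam, and at most 1.47% for the other genes.

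A wider list of 65 adhesion molecules put these genes in context. Of these, 63 were found in the files, all but Cd99 and Cd58, and 58 were tested, with 29 higher, 6 lower and 23 not called (edgeR). That is 60.3% called beside 23.6% of all genes, and 50.0% higher beside 12.5%. The median log2 fold change was 0.31 over the 58 genes and 0.00 over all genes. Fewer were called with limma on log2 TPM (19 and 18, with pseudocounts of 0.1 and 1) and with a mean of at least 5 CPM (23 of 38 tested). Over all genes, the limma fits called 1857 and 1927 of 16938, and the 5 CPM filter 3181 of 11292. Leaving out each library called 24 to 30 of the list, with 27 without KO A, and 2715 to 3661 of all genes. The median was 0.15 over the 38 genes that average 5 CPM or more and 0.21 without KO A. The list was chosen with results of these libraries known, so its direction is a description.

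Among the wider list, nectins and nectin-like molecules did not all go one way. Nectin4 had 17.46, 17.26 and 18.17 CPM in KO and 9.784, 9.832 and 9.442 in WT, a rise of 0.86 ± 0.08 (SE) on the log2 scale (edgeR adjusted p = 1.76e-06). Cadm4, a relative of Cadm1, rose by 0.78 ± 0.07 (SE), from 12.96 ± 0.890 to 22.33 ± 0.879 CPM (edgeR adjusted p = 2.76e-06). Nectin1, far more abundant, had 418.3, 415.0 and 464.7 CPM in KO and 498.9, 492.3 and 487.4 in WT and fell by 0.19 ± 0.04 (SE) (edgeR adjusted p = 0.00401). The Nectin1 call was lost with limma on log2 TPM (adjusted p = 0.0944 and 0.0925). Nectin2 and Nectin3 rose by 0.29 and 0.27 (edgeR adjusted p = 0.0025 and 0.00454), from 27.7 and 25.3 CPM in WT. Pvr and Cadm3 rose by 0.53 and 1.14 (edgeR adjusted p = 0.00855 and 0.0455), from 5.93 and 0.380 CPM in WT. Cadm2 was not called (edgeR adjusted p = 0.990). Of these genes only Nectin1 was called lower.

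Cxadr, the coxsackievirus and adenovirus receptor of the tight junction, rose by 0.50 ± 0.05 (SE), from 57.54 ± 0.647 to 81.46 ± 7.02 CPM (edgeR adjusted p = 1.94e-05). L1cam, an adhesion molecule best known from nerve, rose by 0.69 ± 0.08 (SE), from 11.26 ± 0.734 to 18.25 ± 1.05 CPM (edgeR adjusted p = 2.01e-05). The tetraspanins did not all go one way. Cd151 and Cd82, which organise integrins in the membrane, fell by 0.13 and 0.14 on the log2 scale (edgeR adjusted p = 0.0112 and 0.0276). Cd9, Cd81 and Tspan8 rose by 0.13, 0.17 and 1.36 (edgeR adjusted p = 0.0237, 0.00737 and 0.000113), Tspan8 from a low level of 3.78 CPM in WT. Cd63 was not called (edgeR adjusted p = 0.824). Cd82 was not called without KO B, KO C, WT A or WT C, at edgeR adjusted p of 0.0881 to 0.112, nor with a mean of at least 5 CPM (0.057). Cd99l2 and Cd200 fell by 0.16 and 0.15 (edgeR adjusted p = 0.0034 and 0.00799). With limma on log2 TPM the calls of Cd151 (adjusted p = 0.176 with either pseudocount) and of Cd82 (0.21 and 0.208) were lost, and that of Cd99l2 was lost with a pseudocount of 1 (0.0522). Pecam1, an endothelial molecule, was at 9.57 ± 6.70 CPM in KO and 6.28 ± 3.33 in WT and was not called (edgeR adjusted p = 0.643).

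Of 38 ligands, receptors and inner partners of the 10 genes, 35 were tested, with 12 higher, 2 lower and 21 not called (edgeR). That is 40.0% called beside 23.6% of all genes, with a median log2 fold change of 0.12. The median was 0.06 over the 27 with a mean of at least 5 CPM. The alternatives called 10 to 18 of them. The 2 that fell were Itgb7 and Epb41l3. Of the other listed proteins that link the membrane to actin, Tln1, Vcl, Ezr, Rdx and Actn4 had log2 fold changes between -0.07 and 0.04 and were not called, while Msn rose by 0.13, from 196.5 ± 5.28 to 215.5 ± 14.5 CPM (edgeR adjusted p = 0.0419).

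**Figure D4:**
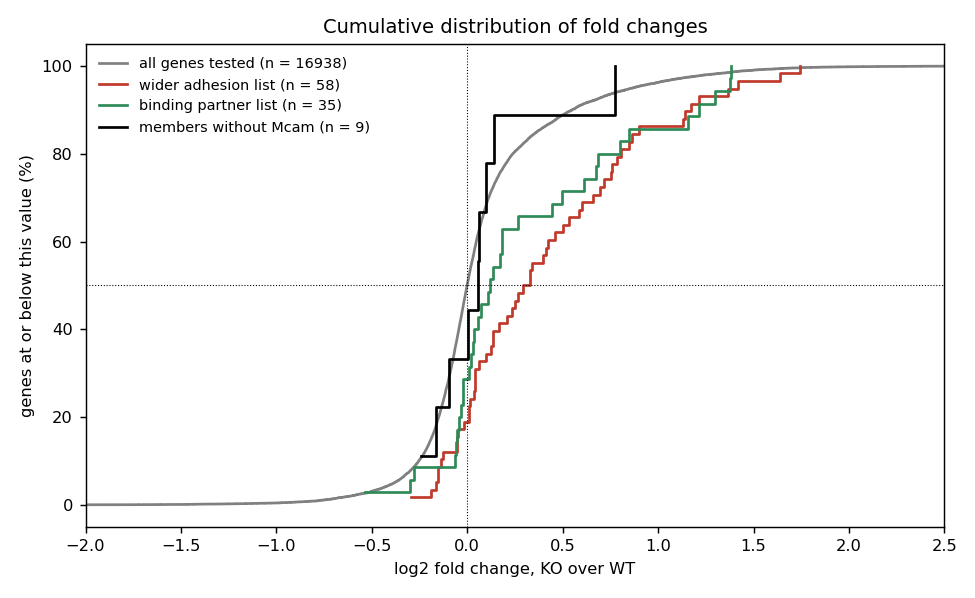
Share of genes (y axis, %) at or below each log2 fold change of KO over WT (x axis), for all 16938 genes tested in grey, the wider adhesion list of 58 in red, the binding partners of 35 in green and the 9 genes without Mcam in black. The red curve lies to the right of the grey one, with medians of 0.31 and 0.00, and the black curve has a median of 0.06 with Cd24a alone at its far right.

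Genes whose profile over the 6 libraries was closest to that of Mcam were ranked by the root mean square difference of centred log2 CPM, among 11294 genes whose mean CPM was 5 or higher. The 5 closest were Rhov (0.0615), Mndal (0.0624), Ccl11 (0.0677), Ces1b (0.0688) and Ifi203 (0.0785). Ccl11, the chemokine eotaxin, had 132.6 CPM in KO and 63.69 in WT, and Rhov had 10.41 and 4.936. Mndal and Ifi203 belong to a family of near-identical interferon-inducible genes, so their counts are uncertain. The 5 closest to Vcam1 were Chrac1 (0.0089), Ndufb6 (0.0155), 4631405K08Rik (0.0173), Mrpl17 (0.0214) and Znhit1 (0.0224). Chrac1 had 34.27 CPM in KO and 38.11 in WT. The likeness rests on the same 6 libraries and reflects the genotype difference among other things.

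Around Mcam on chromosome 9, 53 genes within 1 Mb on either side were tested and 9 were higher and 6 lower (edgeR, 28.3% beside 23.6% of all genes). They include adhesion molecules of the wider list, with Thy1, Mpzl2 and Mpzl3 higher by 0.72, 0.13 and 0.46 on the log2 scale and Nectin1 lower. Pou2f3, the tuft cell transcription factor, was higher by 0.54. Ttc36, Upk2 and Ccdc153 were higher by 1.17, 1.10 and 0.92, all from low levels, and Phldb1 and Kmt2a by 0.41 and 0.14. The others called lower were Scn4b (-0.82), Gm47204 (-0.41), Trim29 (-0.15), Vps11 (-0.14) and Rps25 (-0.10).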

How the data were processed

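RNA of 6 cTEC libraries (3 KO, 3 WT) was analysed. Reads were prepared with a stranded polyA kit, per the labels' protocols, and processed with bcl2fastq 2.17, STAR 2.5.1b and RSEM 1.2.28, per the submitters' processing notes. These notes name GRCh38, a human build, while the identifiers in the files are mouse, so the build used is uncertain. Symbols and positions come from GENCODE M21 (GRCm38), which matched 50376 of 50600 identifiers.

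The authors deposited raw read counts per gene for each strand setting, and the column holding nearly all reads was used. The deposited RSEM files also give expected counts per gene, TPM and transcript lengths, used for alternatives and for levels between genes. Reads assigned to no gene, 18.43% to 19.81% of the total, were left out.

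Genes passing filterByExpr were fitted with the edgeR 4.0.16 quasi-likelihood test (robust, TMM, no block; R 4.3.3) and called where p, adjusted by Benjamini-Hochberg across the whole table, was below 0.05. CPM are TMM-scaled, and the SE comes from the F statistic and is approximate. Between pairs of replicates the variance was on average 4.96 to 5.66 times that of counting alone in WT and 7.35 to 8.91 times in KO. The method was tested on simulated data. The 10 genes and all lists were chosen with earlier results of these data known. Genes named are the 10, up to 5 called genes in each direction with the lowest p in each list, the direct partners, and the 5 closest profiles to Mcam and Vcam1. A gene that this rule names is not reported here. Nectin2, Nectin3, Pvr, Cadm2, Cadm3, Pecam1, Cd9, Cd63, Cd81, Tspan8, Tjp1, Pard3, Itgam, Itga9, Tln1, Vcl, Ezr, Rdx, Msn and Actn4, the markers given by name and the neighbours of Mcam were named after their values were seen. Alternatives were RLE and upper quartile scaling, DESeq2 1.42.0, other filters, expected counts rounded to whole numbers, unstranded counts, limma 3.58.1 on log2(TPM + 1) and log2(TPM + 0.1), a replicate block and leaving out each library. A fit without robust estimation was added after the data were seen. Figures were drawn with matplotlib 3.10.9.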

Additional observations from a re-analysis of the deposited data

How the results depend on the processing

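Each result was recomputed under 17 alternatives. The number of genes called fell from 3989 to 1857 and 1927 with limma on log2(TPM + 0.1) and log2(TPM + 1), and lay between 2715 and 3661 when each library was left out. Members called besides Mcam numbered 3 to 5 in all alternatives, against 4. The wider adhesion list had 19, 18 and 23 called under the 2 limma fits and with a mean of at least 5 CPM, against 35; the last setting tested fewer genes, and the cause of the others was not tested. The binding partners had 10 to 18 called, against 14. Mcam moved to 1.02 with limma on log2(TPM + 1). The sign of the Cadm1 difference turned with expected counts (-0.0062), with limma (-0.0273 and -0.0269), with no filter (-0.0055), without KO B (-0.0368) and without WT C (-0.0005), and ranged from -0.0368 to 0.0249 when each library was left out; the cause was not tested. Cd24a, Alcam and Epcam kept direction and call in all 17.

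With the replicate letter as a block, 4097 genes, 4 of the 9 members, 36 of the wider list and 15 partners were called, and no member's call changed. The labels do not say whether the letters pair the samples. Deviations of same-letter libraries correlated at -0.0156, 0.0818 and -0.0341, and those of different letters at -0.0666 to 0.0837, so no deviation particular to shared letters was seen. The depth limits low genes such as Crtam and Siglecg.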
